A study of Rattus norvegicus with 12 samples.

Results

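The genes described here are the rows of a deposited retina gene table whose annotated type is something other than protein coding. A row was taken when its type was given, was neither protein coding nor a mitochondrial rRNA or tRNA, and its counts averaged 10 or more over the 12 libraries. Rows named Chat or with a symbol beginning RT1- were left out. This left 271 of 30560 rows: 55 typed as long noncoding RNA, 130 as small RNA and 86 as pseudogene. A further 6514 rows carry no type and were not considered. The members were thus chosen by their mean count over all 12 libraries, so their levels are a description. Just inside the limit lay Mir25, Gm26224 and SNORD28 at a mean of 10 counts, and just outside lay Slc9b2 and Snord19 at 9.92 and Snord38a at 9.75.

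The study is a rat model of glaucoma in which 6 rats received 2 µL of 20 mM NMDA into the vitreous and 6 rats received 2 µL of PBS by the same route. NMDA is an agonist of a glutamate receptor class, and its injection into the eye is an established way to injure retinal ganglion cells and amacrine cells. Total RNA of the retina was sequenced, with 1 library per rat. The sources used here give no strain, age, sex or time after injection.

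Long noncoding RNAs are transcribed and spliced much like messenger RNAs but code for no known protein. Small nucleolar RNAs (snoRNAs) guide chemical modification of ribosomal RNA, the related scaRNAs modify spliceosomal RNAs, and most of them in mammals are cut from introns of a host gene. MicroRNAs are cut from hairpins in longer transcripts and pair with messenger RNAs through a short seed at their 5′ end. Pseudogenes are copies of genes that have lost their coding function, and ribosomal protein genes have left many such copies in mammalian genomes.

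The types go against what many of these rows are. Among the 55 rows typed long noncoding, 32 carry a symbol that RefSeq (rat GRCr8) lists as protein coding, as do 45 of the 86 rows typed pseudogene. Of these 77 rows, 60 are the only row of the table with their symbol. Junb, Abca4, Tac1 and Cryaa are typed pseudogene, and Rab32, Gng2 and Ubl3 are typed long noncoding. The rows are therefore called below by the type the deposited annotation gives them. Established nuclear long noncoding RNAs such as Malat1, Neat1 and Meg3 are not among the members and were not analysed here.

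The small RNA members were 83 snoRNAs, 20 microRNAs, 10 scaRNAs, 6 small nuclear RNAs (snRNAs), 6 miscellaneous RNAs, 3 ribozymes and 2 rRNAs. Mature sequences were found in RefSeq for 13 of the 20 microRNA genes, and the 22 mature forms of these 13 genes have 22 different seeds. The other 7 genes, which include both genes of miR-124, were not compared by seed. The forms shown here are both arms of Mir770, which fell in NMDA retinas, and the 5′ arms of 4 microRNA genes without a call that are known from nervous tissue or pigmented eye tissue. Capitals mark the seed, bases 2 to 8.
rno-miR-770-5p: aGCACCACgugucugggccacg
rno-miR-770-3p: gUGGGCCUgacguggag
rno-miR-186-5p: cAAAGAAUucuccuuuugggcu
rno-miR-7a-5p: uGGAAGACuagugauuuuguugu
rno-let-7d-5p: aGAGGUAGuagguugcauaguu
rno-miR-204-5p: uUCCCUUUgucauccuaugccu

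The counted unit is not the mature form but the deposited interval, which for microRNAs is about the hairpin. The Mir770 hairpin (GRCr8 chr6:134298084-134298159, + strand, 76 bases) is shown with its mature arms in capitals; the deposited interval for it is 94 bases long.
Mir770 hairpin: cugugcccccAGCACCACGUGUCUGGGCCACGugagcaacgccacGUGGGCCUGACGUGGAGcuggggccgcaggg

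The libraries held 16415611 to 34022023 counts, and no pair of libraries was identical. Retinal markers were present in every library. Shares over all tested genes, for comparison with the marker calls, were 20.4% higher and 17.5% lower. Of 8 rod markers 7 were lower in NMDA retinas, and their summed level ran from 32204 to 47615 CPM, the library-scaled read count, in NMDA retinas and from 47310 to 49836 CPM in PBS retinas. Of the ganglion cell markers 5 of 6 were lower, with sums of 134 to 400 CPM in NMDA retinas and 589 to 705 CPM in PBS retinas. All 6 amacrine markers were lower, with sums of 511 to 780 CPM in NMDA retinas and 955 to 1101 CPM in PBS retinas. All 7 microglial markers were higher, with sums of 88.3 to 185 CPM in NMDA retinas and 52.0 to 74.3 CPM in PBS retinas. Of 6 Mueller glia markers 5 were lower and 1 higher, with sums of 2247 to 3166 CPM in NMDA retinas and 3818 to 5632 CPM in PBS retinas. Of 7 tested lymphocyte and neutrophil markers 6 were higher, with sums of 20.0 to 86.3 CPM in NMDA retinas and 3.77 to 13.4 CPM in PBS retinas. Of 6 pigment epithelium markers 2 were lower, with sums of 15.7 to 259 CPM in NMDA retinas and 67.0 to 198 CPM in PBS retinas. None of the 3 blood markers found was called. No row of these lists or of the 10 lens markers was at 0 in every library, while the lens marker Lim2 had 0 counts in NMDA library 1. In these bulk samples fewer cells of a type and less RNA per cell cannot be told apart.

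Of the 271 members, 266 passed the filter on low counts and were tested with edgeR's quasi-likelihood test over all 16260 tested genes. At a Benjamini-Hochberg adjusted p below 0.05, 25 were higher and 28 lower in NMDA retinas, 19.9% in all. Over all tested genes the share was 37.9%, with 20.4% higher and 17.5% lower, and over tested genes with a mean count under 50 it was 24.5%, with 14.6% higher and 9.91% lower. With library sizes alone in place of TMM scaling, 34 members were higher and 22 lower. That setting also moved the median log2 fold change of all tested genes to 0.0636, from 0.0136. The median log2 fold change was 0.03 over the members and 0.01 over all tested genes. In 15 members every NMDA library lay above every PBS library, and in 11 every NMDA library lay below; over all tested genes these shares were 9.43% and 8.66%. Only 5 called members differed by 2-fold or more: Tcim, Rab32 and Junb were higher, Sptssb and AABR07069821.1 lower. Of the 24 members that reached a mean of 10 counts in just 1 of the groups, 2 were called. Over all tested genes, 358 had a mean under 10 counts in at least 1 group, and 175 of them were called.

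**Figure D1:**
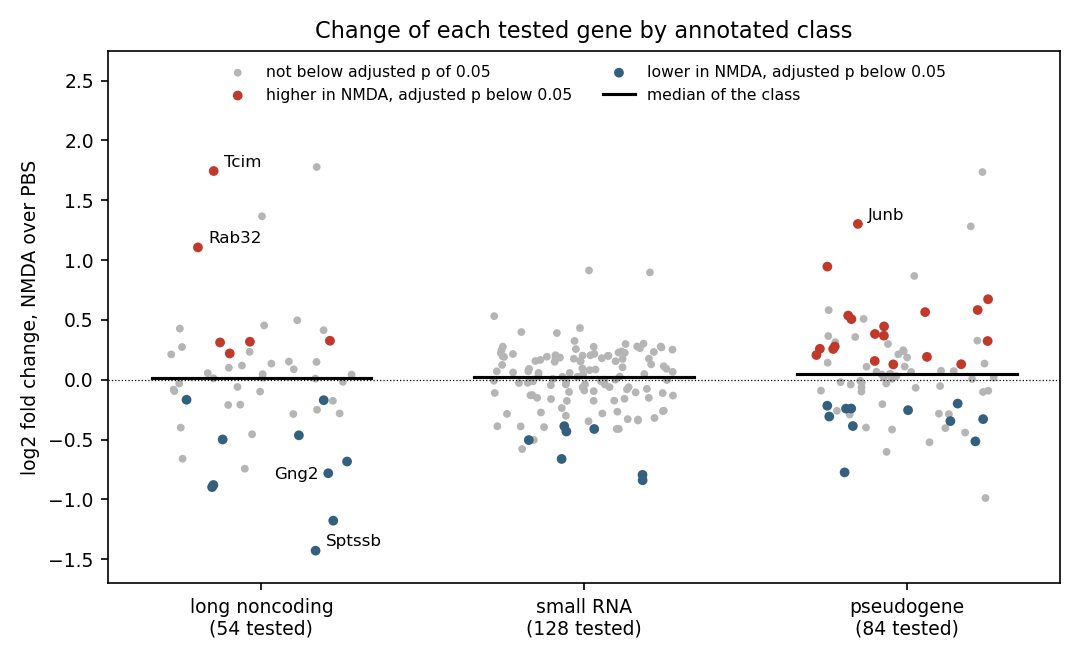
Log2 fold change of each tested gene, NMDA over PBS, by annotated class; grey points had an adjusted p of 0.05 or more, red points were higher and blue points lower in NMDA retinas, and black lines mark class medians. The calls spread in both directions among 54 long noncoding and 84 pseudogene rows, while the 7 calls among 128 small RNA rows all lie below 0.

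Among the 54 tested long noncoding rows, 6 were higher and 10 lower, 29.6% in all. All 6 that rose carry symbols of protein-coding genes. Among the rows without such a symbol, 0 were higher and 5 lower by edgeR, out of 22 tested. Of these 5, 2 reached a mean of 10 counts only in PBS retinas. They met the count rule through the group where they were high. At an unadjusted p below 0.05, 2 rows without such a symbol were higher. DESeq2, limma voom and limma on FPKM called 2, 1 and 0 of them higher. Without NMDA library 1, 10 long noncoding rows were higher. Beside the background of 20.4% and 17.5%, the share of long noncoding rows was 11.1% higher and 18.5% lower.

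Tcim, which encodes a small regulatory protein first described in human thyroid cancer, had the largest called rise. Its level ran from 2.84 to 4.37 CPM with a median of 3.57 in NMDA retinas, against 0.392 to 1.81 CPM with a median of 1.11 in PBS retinas. The groups did not overlap, and the log2 fold change was 1.74 ± 0.306 (SE, edgeR adjusted p = 0.000786). Rab32, a small GTPase of lysosome-related organelles, ran from 13.6 to 25.6 CPM (median 19.1) in NMDA retinas and from 7.72 to 9.96 CPM (median 8.84) in PBS retinas. Every NMDA library again lay above every PBS library, with a log2 fold change of 1.11 ± 0.142 (edgeR adjusted p = 0.000134). Cdc42se1, which encodes a small binding partner of the GTPase Cdc42, averaged 50.5 ± 3.19 CPM in NMDA retinas and 40.2 ± 2.51 CPM in PBS retinas (SD, n = 6 each; edgeR adjusted p = 0.000603). Mrpl52, a protein of the mitochondrial ribosome, averaged 44.0 ± 1.74 CPM in NMDA retinas and 37.8 ± 2.10 CPM in PBS retinas (SD, n = 6 each; edgeR adjusted p = 0.0023). In both of these rows the groups did not overlap, though the changes were 1.25-fold and 1.16-fold. Bloc1s6, a subunit of a complex for lysosome-related organelles, and Mafk, a small Maf transcription factor, rose by 0.31 and 0.32 on the log2 scale with overlapping groups; these were chosen for naming after their values were seen. The Mafk call was lost without NMDA library 5 or PBS library 2 (log2 fold changes of 0.25 and 0.29, edgeR adjusted p = 0.0538 in both).

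Sptssb, a small subunit of serine palmitoyltransferase, the enzyme that starts sphingolipid synthesis, fell most. It ran from 1.03 to 4.97 CPM with a median of 2.01 in NMDA retinas and from 6.02 to 8.12 CPM with a median of 6.90 in PBS retinas. The NMDA libraries spread widely, with 1 and 3 at 4.18 and 4.97 CPM and the other 4 at 2.08 CPM or lower, yet all lay below the PBS libraries. The log2 fold change was -1.43 ± 0.336 (edgeR adjusted p = 0.0051). Gng2, a gamma subunit of heterotrimeric G proteins, ran from 45.3 to 69.0 CPM (median 52.0) in NMDA retinas and from 92.8 to 101 CPM (median 94.3) in PBS retinas. Its groups did not overlap, and NMDA libraries 1 and 3 were again the highest of the group at 67.8 and 69.0 CPM (log2 fold change -0.78 ± 0.1, edgeR adjusted p = 0.000139). Both falls stood beside lower ganglion, amacrine and Mueller glia marker sums, a mostly lower rod marker sum and higher microglial, lymphocyte and neutrophil marker sums, given above; their part in these results was not tested.

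AABR07059002.1, a row with no name or description (chr4:6945496-6952395 in the deposited table), averaged 1.23 ± 0.263 CPM in NMDA retinas and 2.26 ± 0.21 CPM in PBS retinas (SD, n = 6 each). The highest NMDA library was below the lowest PBS library, with a log2 fold change of -0.88 ± 0.153 (edgeR adjusted p = 0.000769). The other 4 that fell and carry no protein-coding symbol were AABR07069821.1, AABR07065590.1, AABR07021536.1 and Lnc134, named here after their values were seen. Lnc134, whose description says only that it is a long noncoding RNA, was the most abundant of these, with 30.9 to 61.9 CPM (median 42.1) in NMDA retinas and 53.0 to 63.9 CPM (median 60.0) in PBS retinas. Its groups overlapped because NMDA library 1, at 61.9 CPM, lay among the PBS libraries (log2 fold change -0.46 ± 0.132, edgeR adjusted p = 0.0144). AABR07069821.1 averaged 10.7 counts per library, and its fold change of -1.18 ± 0.336 rests on that depth. The call of AABR07065590.1 was lost without NMDA library 4 or 6 or PBS library 5 or 6 (log2 fold changes of -0.65 to -0.55), and that of AABR07021536.1 without any of NMDA libraries 2, 3, 5 and 6 and PBS libraries 3, 4 and 6 (-0.52 to -0.36).

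The long noncoding rows with the highest levels per length were Tspyl1, Atp5mc1 and Ubl3. Ubl3, a membrane-anchored ubiquitin-like protein, fell by 0.17 on the log2 scale (151 ± 9.18 CPM in NMDA retinas, 170 ± 8.73 CPM in PBS retinas, SD, n = 6 each; edgeR adjusted p = 0.0129). Tspyl1, of a nucleosome assembly protein family, has 2 rows at almost the same position on chromosome 20. The more abundant row fell by 0.17 on the log2 scale (edgeR adjusted p = 0.0262), and the other had a log2 fold change of -0.28 (edgeR adjusted p = 0.0822). The first call was lost without NMDA library 4 or PBS library 3 or 6, and the other row was called without NMDA library 4 (log2 fold change -0.34, edgeR adjusted p = 0.0482). Counting could split reads between them, so their values are uncertain. Atp5mc1, a subunit of mitochondrial ATP synthase, averaged 36.2 ± 3.66 CPM in NMDA retinas and 33.0 ± 2.90 CPM in PBS retinas (SD, n = 6 each) and was not called (edgeR adjusted p = 0.186).

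**Figure D2:**
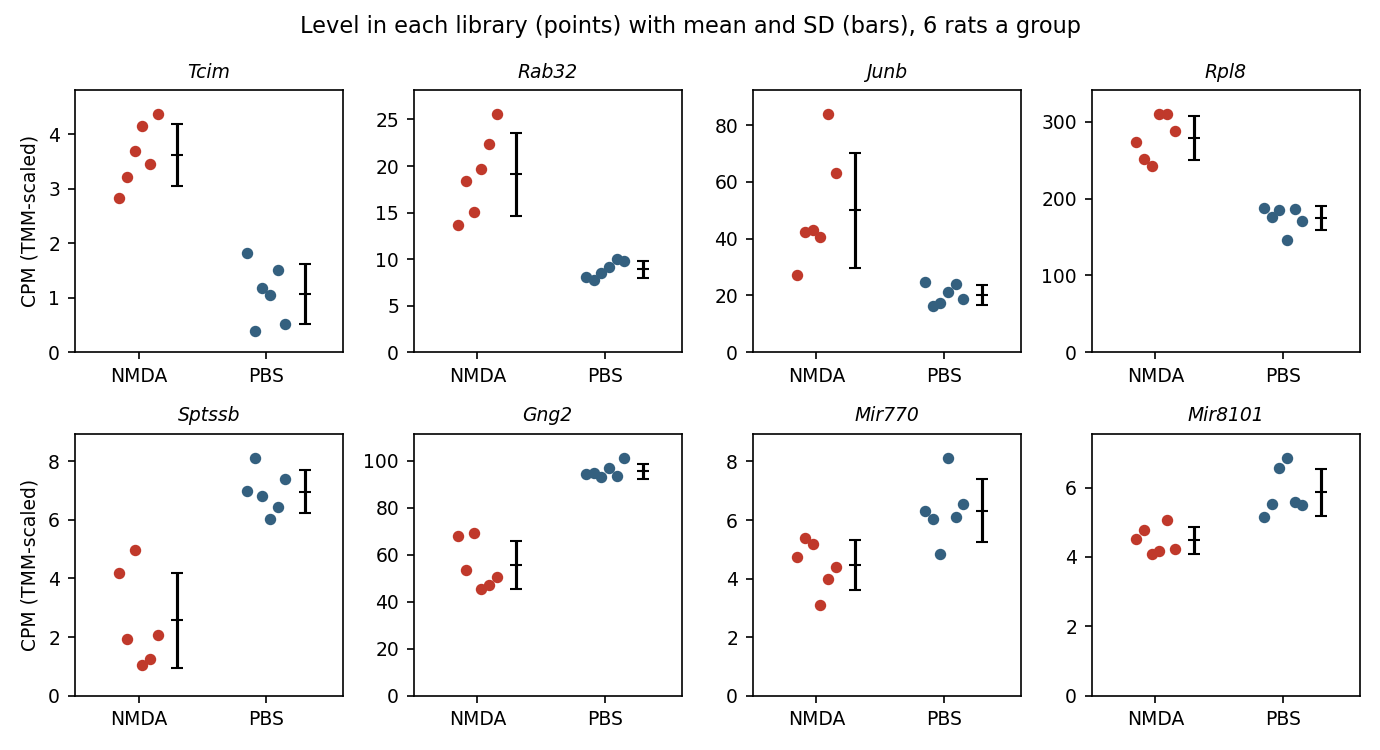
CPM in each library of 8 members, NMDA left of PBS, with points for the 6 rats of a group and bars for the mean and SD; each panel starts at 0. The groups are apart in 7 panels, and in the Mir770 panel they overlap, with NMDA libraries at 3.09 to 5.39 CPM and PBS libraries at 4.83 to 8.13 CPM.

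The pseudogene rows were called nearly as often as other genes. Of 84 tested, 19 were higher and 11 lower, 35.7% in all, beside 37.9% over all tested genes. Every NMDA library lay above every PBS library in 11 rows and below in 4, beside 9.43% and 8.66% of all tested genes. Among the 44 tested rows with a protein-coding symbol 8 were higher and 7 lower, and among the 40 without, 11 were higher and 4 lower.

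Junb, a subunit of the AP-1 transcription factor and an immediate early gene, had the largest called rise of the class. It ran from 27.3 to 83.8 CPM with a median of 42.6 in NMDA retinas and from 16.2 to 24.5 CPM with a median of 19.9 in PBS retinas. The groups did not overlap, and NMDA libraries 5 and 6 were the highest at 83.8 and 63.2 CPM. The log2 fold change was 1.30 ± 0.238 (edgeR adjusted p = 0.0013). The 250 bases before the RefSeq start sites of Junb (GRCr8 chr19:40080876-40081125, + strand) and of Sptssb (GRCr8 chr2:156460910-156461159, - strand) are shown because these rows had the largest called rise of the pseudogene class and the largest called fall of all members.
Junb: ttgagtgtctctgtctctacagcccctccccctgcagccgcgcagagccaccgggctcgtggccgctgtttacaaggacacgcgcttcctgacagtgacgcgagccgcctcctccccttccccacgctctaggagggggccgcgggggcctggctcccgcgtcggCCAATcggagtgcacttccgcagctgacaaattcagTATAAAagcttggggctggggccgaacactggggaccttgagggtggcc
Sptssb: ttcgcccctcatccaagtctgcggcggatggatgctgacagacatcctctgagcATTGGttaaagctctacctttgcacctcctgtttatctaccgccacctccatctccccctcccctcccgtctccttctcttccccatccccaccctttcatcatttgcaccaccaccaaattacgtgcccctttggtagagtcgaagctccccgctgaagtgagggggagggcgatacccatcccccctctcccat

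Both strands were searched for the CCAAT box by its name's letters, the TATA box (letters TATAAA) and the motifs of AP-1 (letters TGANTCA), CRE (letters TGACGTCA) and STAT (letters TTCNNNGAA). Capitals mark the matches. Junb held the CCAAT box from 85 to 81 bases and the TATA box from 49 to 44 bases before the start site. Sptssb held the CCAAT box on the other strand, from 196 to 192 bases before the start site. Over 33469 rat promoter windows of the same length, the CCAAT box was found in 34%, the TATA box in 12.9%, the AP-1 motif in 6.34%, the STAT motif in 7.67% and the CRE in 1.59%. The last 3 motifs had no match in either window, and a match is a description of the letters only.

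Copies of ribosomal protein genes made 3 of the called rises with groups that did not overlap. The Rpl8 row typed pseudogene (chr3:8761823-8762671) ran from 242 to 310 CPM (median 281) in NMDA retinas and from 146 to 187 CPM (median 181) in PBS retinas. Its groups did not overlap, with a log2 fold change of 0.67 ± 0.0766 (edgeR adjusted p = 6.44e-05). Rpl6-ps1, a named pseudogene of Rpl6, ran from 108 to 167 CPM (median 135) in NMDA retinas and from 81.4 to 96.9 CPM (median 89.9) in PBS retinas. The lowest NMDA library was above the highest PBS library (log2 fold change 0.58 ± 0.0933, edgeR adjusted p = 0.000472). AABR07039325.1, described as a ribosomal protein L7a, ran from 104 to 128 CPM (median 121) in NMDA retinas and from 76.8 to 87.1 CPM (median 82.5) in PBS retinas. Its groups did not overlap either (log2 fold change 0.54 ± 0.0537, edgeR adjusted p = 2.92e-05). In all 6 long noncoding or pseudogene members with a ribosomal protein symbol or description the fold change was above 0, with a median of 0.56 on the log2 scale, and these 3 were called. Not called were RGD1563905, Rpl30 and AABR07072539.4. The interval of AABR07072539.4 (chr6:123970709-123978469) contains that of Rpl6-ps1, so these rows may share reads and are not separate evidence of a rise.

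Of these 6 rows, the 3 called ones held more reads per length than the rows of the same gene typed protein coding. The other 3 held fewer. On the deposited FPKM scale, the pseudogene row of Rpl8 averaged 356 ± 39.0 in NMDA retinas and 216 ± 19.4 in PBS retinas, while the protein-coding Rpl8 row on chromosome 7 averaged 4.06 in NMDA retinas and 3.34 in PBS retinas. Rpl6-ps1 averaged 149 ± 24.7 FPKM in NMDA retinas and 95.9 ± 6.54 FPKM in PBS retinas, while Rpl6 averaged 59.2 FPKM in NMDA retinas and 34.9 FPKM in PBS retinas. AABR07039325.1 averaged 146 ± 12.4 FPKM in NMDA retinas and 96.9 ± 4.83 FPKM in PBS retinas, while Rpl7a averaged 12.2 FPKM in NMDA retinas and 10.5 FPKM in PBS retinas (SD, n = 6 each). In the other direction, RGD1563905 averaged 1.18 FPKM in NMDA retinas and 0.757 FPKM in PBS retinas, while Rpl19 averaged 359 FPKM in NMDA retinas and 240.0 FPKM in PBS retinas. The Rpl30 row typed long noncoding, on chromosome 7 and 5373 bases long, averaged 1.98 FPKM in NMDA retinas and 1.35 FPKM in PBS retinas. The 2 Rpl30 rows typed protein coding, both on chromosome 10, summed to 219 FPKM in NMDA retinas and 153 FPKM in PBS retinas. The types do not settle which of these Rpl30 rows is the gene and which are copies. AABR07072539.4, described as similar to ribosomal protein L6, averaged 0.636 FPKM in NMDA retinas and 0.462 FPKM in PBS retinas. Reads of near-identical copies can be split between rows by the counting, so neither the copy nor the gene has a certain level of its own. Rpl6 was called higher with a log2 fold change of 0.71 (edgeR adjusted p = 1.77e-05), while the protein-coding rows of Rpl8 and Rpl7a had 0.23 and 0.17 and were not called (edgeR adjusted p = 0.419 and 0.232).

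**Figure D3:**
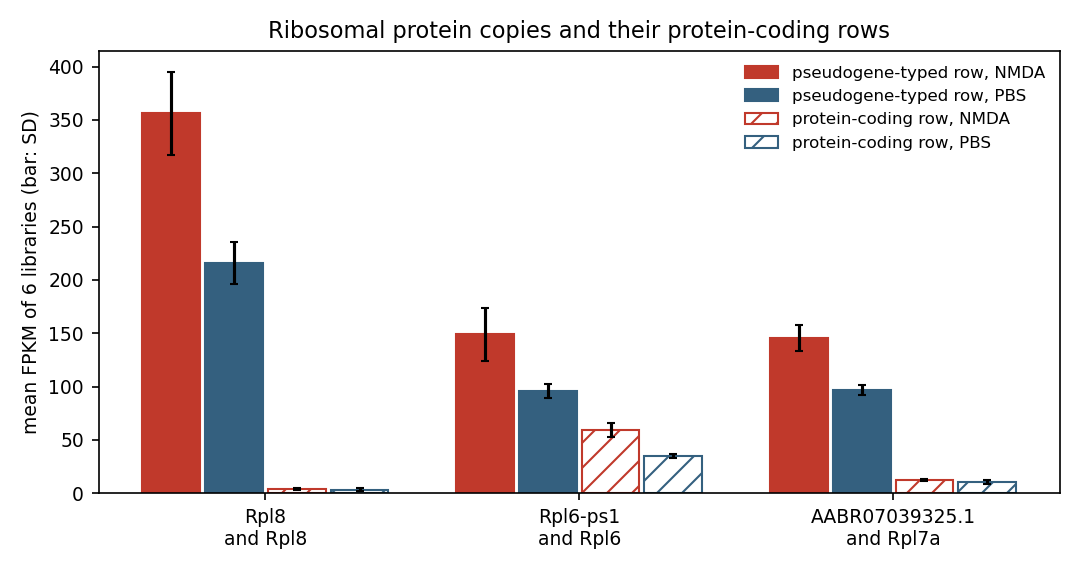
Mean FPKM of 6 libraries for 3 pseudogene-typed ribosomal protein rows (filled bars) and the protein-coding row of the same gene (hatched bars), NMDA left of PBS in each pair; lines show the SD. Each of these 3 copies stands above its protein-coding row, by the most for Rpl8, at 356 against 4.06 FPKM in NMDA retinas.

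Smaller rises with groups that did not overlap were seen in Ddx18, an RNA helicase of ribosome biogenesis, with 15.2 ± 1.1 CPM in NMDA retinas and 12.1 ± 0.992 CPM in PBS retinas (SD, n = 6 each; edgeR adjusted p = 0.0031). Ptpdc1, a protein tyrosine phosphatase domain gene, averaged 27.4 ± 1.07 CPM in NMDA retinas and 25.1 ± 0.865 CPM in PBS retinas (SD, n = 6 each; edgeR adjusted p = 0.0252), a call lost without NMDA library 1 or 6 or PBS library 2 or 6. AABR07049353.1, a short row with no description, rose by 0.57 on the log2 scale from a low level, with 1.98 ± 0.294 CPM in NMDA retinas and 1.33 ± 0.156 CPM in PBS retinas (SD, n = 6 each; edgeR adjusted p = 0.0067). The third most abundant pseudogene row per length, AABR07067267.1, averaged 559 ± 31.2 CPM in NMDA retinas and 490 ± 12.2 CPM in PBS retinas (SD, n = 6 each). Its log2 fold change was 0.19 with no overlap (edgeR adjusted p = 0.0028). Named after its values were seen, Dock1, which activates the GTPase Rac, rose by 0.45 on the log2 scale (61.4 ± 6.04 CPM in NMDA retinas, 45.1 ± 3.77 CPM in PBS retinas, SD, n = 6 each; edgeR adjusted p = 0.000489).

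Among the falls, Exoc3l1, a relative of an exocyst subunit, ran from 19.1 to 30.0 CPM (median 24.2) in NMDA retinas and from 31.4 to 37.6 CPM (median 36.1) in PBS retinas. Its groups did not overlap (log2 fold change -0.51 ± 0.0915, edgeR adjusted p = 0.000856). Ap3b2, the neuronal beta subunit of the AP-3 adaptor complex, averaged 179 ± 13.3 CPM in NMDA retinas and 213 ± 7.52 CPM in PBS retinas (SD, n = 6 each; edgeR adjusted p = 0.0014). AABR07005779.3, without a description, averaged 22.4 ± 1.96 CPM in NMDA retinas and 29.3 ± 2.43 CPM in PBS retinas (SD, n = 6 each; edgeR adjusted p = 0.000981). Every NMDA library lay below every PBS library in both rows. Retinal genes named after their values were seen were Abca4, the retinoid transporter of photoreceptor outer segments, and Tac1, the substance P precursor of some amacrine cells. Abca4 averaged 1253 ± 135 CPM in NMDA retinas and 1438 ± 56.1 CPM in PBS retinas (SD, n = 6 each; log2 fold change -0.20, edgeR adjusted p = 0.0258). NMDA library 1, at 1506 CPM, lay among the PBS libraries and the other 5 were lower. Tac1 averaged 3.07 ± 0.545 CPM in NMDA retinas and 3.90 ± 0.261 CPM in PBS retinas (SD, n = 6 each; log2 fold change -0.35, edgeR adjusted p = 0.0422). The Abca4 call was lost without any of NMDA libraries 2, 3, 5 and 6 and PBS library 6 (log2 fold changes of -0.19 to -0.18), and the Tac1 call without any of NMDA libraries 2, 3, 4 and 6 and PBS libraries 2 to 6 (-0.35 to -0.29). The rod marker sum for Abca4 and the amacrine marker sum for Tac1 moved the same way, and their part in these falls was not tested.

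Cryaa, a lens crystallin typed pseudogene, had one of the 3 highest levels per length of its class. It ran from 32.5 to 1619 CPM with a median of 939 in NMDA retinas and from 340 to 1467 CPM with a median of 814 in PBS retinas. The groups overlapped over most of their range, and the row was not called (log2 fold change 0.24 ± 0.664, edgeR adjusted p = 0.815). The 10 lens markers together ran from 60.7 to 2685 CPM in NMDA retinas and from 494 to 2487 CPM in PBS retinas, and none was called by edgeR, DESeq2, limma voom or limma on FPKM, or had an unadjusted edgeR p below 0.05.

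The members made up 0.668% ± 0.0565 of all counts in NMDA retinas and 0.625% ± 0.0439 in PBS retinas (SD, n = 6 each). Pseudogene rows held most of this, 0.515% ± 0.0559 in NMDA retinas and 0.471% ± 0.0448 in PBS retinas, and Abca4 alone took 27.1% of the pseudogene counts. The lens crystallin Cryaa, which varied widely between libraries, is also in this share. NMDA library 1, with Cryaa at 32.5 CPM, had the lowest pseudogene share of the NMDA libraries, 0.429%. The part of Cryaa in the share was not tested. Long noncoding rows held 0.130% ± 0.000808 in NMDA retinas and 0.131% ± 0.00271 in PBS retinas. Small RNA rows held 0.0227% ± 0.000818 in NMDA retinas and 0.0231% ± 0.00156 in PBS retinas. The ranges of the groups overlapped in all 4 shares, and they were not tested.

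Small RNA rows had shallow counts and few calls. Of 128 tested, 0 were higher and 7 lower by edgeR, 5.47% in all, beside 24.5% (14.6% higher, 9.91% lower) of all tested genes with a mean count under 50. At an unadjusted p below 0.05, 2 were higher, and DESeq2, limma voom and limma on FPKM called 0, 1 and 12 higher. Without NMDA library 6 there were 4 lower calls, and without NMDA library 4 there were 2 higher calls. Their median mean count was 18.4 and the median standard error of their log2 fold change 0.207, against 619 counts and 0.0902 over all tested genes. No small RNA row had all NMDA libraries above all PBS libraries, and 3 had all below. Over all tested genes these shares were 9.43% and 8.66%. Reads of a longer transcript that spans such an interval cannot be told apart here from reads of the small RNA itself.

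Among 18 tested microRNA rows, 14 had a fold change below 0, 3 were called lower and none higher by edgeR. The lower calls made 16.7%, beside 17.5% of all tested genes and 9.91% of tested genes with a mean count under 50. Higher calls made 20.4% and 14.6% of these 2 backgrounds. No microRNA row was higher at an unadjusted p below 0.05 or by DESeq2 or limma voom, and 1 was by limma on FPKM. The median log2 fold change was -0.28, beside 0.03 for all members. Mir8101, which lies inside Hdac5 (a histone deacetylase), was the clearest of them. It ran from 4.09 to 5.07 CPM (median 4.38) in NMDA retinas and from 5.15 to 6.86 CPM (median 5.56) in PBS retinas. The groups did not overlap, and the log2 fold change was -0.39 ± 0.0996 (edgeR adjusted p = 0.0081). Hdac5 itself fell by 0.25 on the log2 scale (292 CPM in NMDA retinas, 347 CPM in PBS retinas; edgeR adjusted p = 0.004).

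Mir770, whose 76-base hairpin and arms are shown above, lies inside Meg3, a maternally expressed long noncoding RNA, in RefSeq. It ran from 3.09 to 5.39 CPM (median 4.58) in NMDA retinas and from 4.83 to 8.13 CPM (median 6.21) in PBS retinas. The groups overlapped by 1 PBS library at 4.83 CPM (log2 fold change -0.50 ± 0.148, edgeR adjusted p = 0.0169); this row was named after its values were seen. Of the 2 genes of miR-124, a microRNA abundant in neurons, Mir124-2 averaged 1.67 ± 0.165 CPM in NMDA retinas and 2.22 ± 0.457 CPM in PBS retinas (SD, n = 6 each). It passed narrowly (log2 fold change -0.41 ± 0.152, edgeR adjusted p = 0.0477), and the call was lost when any of NMDA libraries 1, 2, 3, 5 and 6 or PBS libraries 1, 2 and 3 was left out, with log2 fold changes of -0.44 to -0.34 then. Mir124-1 averaged 1.36 ± 0.442 CPM in NMDA retinas and 1.62 ± 0.401 CPM in PBS retinas (SD, n = 6 each; log2 fold change -0.26 ± 0.239, edgeR adjusted p = 0.423).

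Of the 4 microRNA genes without a call whose seeds are shown, the 3 that were tested had fold changes below 0. These 3, Mirlet7d, Mir186 and Mir7-1, were named outside the naming rule with results known. Over all 18 tested microRNA rows, 14 lay below 0 and 4 above. Uncalled rows above 0 included Mir568 at 0.20 and Mir25 at 0.16 on the log2 scale. Mirlet7d averaged 0.609 ± 0.0796 CPM in NMDA retinas and 0.770 ± 0.119 CPM in PBS retinas. Mir186 averaged 0.728 ± 0.0926 CPM in NMDA retinas and 0.916 ± 0.148 CPM in PBS retinas, and Mir7-1 averaged 0.360 ± 0.0821 CPM in NMDA retinas and 0.455 ± 0.115 CPM in PBS retinas (SD, n = 6 each). Their log2 fold changes were -0.34, -0.33 and -0.33 (edgeR adjusted p = 0.143, 0.134 and 0.292). Mir204, whose mature form is abundant in retinal pigment epithelium, averaged 0.352 ± 0.112 CPM in NMDA retinas and 0.383 ± 0.0463 CPM in PBS retinas (SD, n = 6 each) and was too low to be tested. The microRNA rows with the highest levels per length were not called. Mir3064 lies inside Ddx5, which averaged 1380 CPM in NMDA retinas and 1456 CPM in PBS retinas. Mir6323 overlaps AABR07034706.1, which was lower (log2 fold change -0.29, edgeR adjusted p = 0.0427). Reads of these genes and of the microRNAs cannot be told apart here. Mir3064 averaged 19.2 ± 1.81 CPM in NMDA retinas and 18.9 ± 1.47 CPM in PBS retinas, and Mir6323 averaged 12.1 ± 1.85 CPM in NMDA retinas and 14.2 ± 1.57 CPM in PBS retinas (SD, n = 6 each; edgeR adjusted p = 0.821 and 0.0946). Mir6323 passed the threshold without NMDA library 1, at a log2 fold change of -0.33 (edgeR adjusted p = 0.0086), and without PBS library 5, at -0.29 (edgeR adjusted p = 0.0445).

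The other 4 small RNA calls, each under 2 CPM in both groups and named after their values were seen, were a U6 snRNA copy, a SNORA71 and a SNORA70 snoRNA and the scaRNA Gm24644. The U6 copy (ENSRNOG00000064463, chr1:181409122-181409228) averaged 0.566 ± 0.109 CPM in NMDA retinas and 0.984 ± 0.155 CPM in PBS retinas (SD, n = 6 each) with no overlap. It lies inside the Aldoa row, and its log2 fold change was -0.79 ± 0.177 (edgeR adjusted p = 0.0035). The other 2 U6 members that lie inside genes, in Mast2 and Rnf14, had log2 fold changes of -0.58 and -0.03 and were not called (edgeR adjusted p = 0.109 and 0.94). The remaining calls fell by 0.84 (SNORA71), 0.66 (SNORA70, chr5:141723053-141723172) and 0.43 (Gm24644) on the log2 scale. The SNORA70 call was lost without any of NMDA libraries 2, 4 and 6 and PBS libraries 2, 4 and 6 (log2 fold changes of -0.67 to -0.52), and the Gm24644 call without NMDA library 6 (-0.41). Rn7sl1, the RNA of the signal recognition particle, held the most counts of the class, with 46.2 ± 5.88 CPM in NMDA retinas and 51.6 ± 8.83 CPM in PBS retinas (SD, n = 6 each; edgeR adjusted p = 0.305). Rpph1, the RNA of RNase P, averaged 2.61 ± 0.718 CPM in NMDA retinas and 2.63 ± 0.676 CPM in PBS retinas (SD, n = 6 each; edgeR adjusted p = 0.972), and the sign of its fold change was not stable across settings.

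Most small RNA members lay inside protein-coding genes, and 16 snoRNAs lay inside 13 ribosomal protein genes. Of these 13 genes 9 were higher in NMDA retinas and none lower by edgeR (none by the other tools or at an unadjusted p below 0.05), with a median log2 fold change of 0.65. Over all tested genes 20.4% were higher and 17.5% lower. None of the 16 snoRNAs was called by edgeR, in either direction, or had an unadjusted p below 0.05; DESeq2 and limma voom called none, and limma on FPKM called 1 higher. In edgeR, their median log2 fold change was 0.02, with a median standard error of 0.221. In 15 of the 16 pairs the snoRNA had the lower fold change. Among small RNAs inside other protein-coding genes this held for 37 of 69 tested. Snora64 had -0.18 and its gene Rps2 1.07, and SNORD16 had -0.04 and Rpl4 0.66. The exception was 1 of 2 SNORD33 rows in AC099450.1, which is described as ribosomal protein L13A, with 0.43 for the snoRNA and 0.40 for the gene. The difference between snoRNA and gene was not tested.

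**Figure D4:**
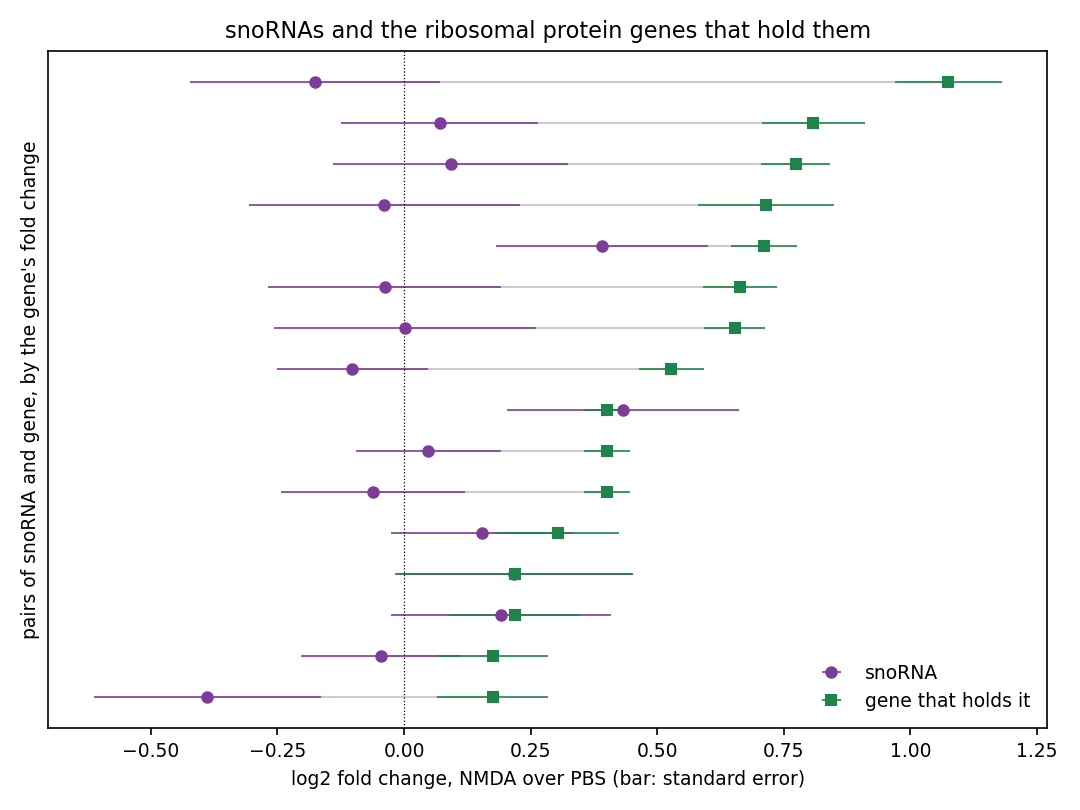
Log2 fold change, NMDA over PBS, of 16 snoRNAs (circles) and of the ribosomal protein gene that holds each (squares), with standard errors as bars and 1 pair per row, ordered by the gene's fold change. The squares lie right of 0 in every pair, while the circles lie on both sides of 0 within about 0.43.

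Summed over the 16 snoRNAs, the level was 10.4 ± 0.92 CPM in NMDA retinas and 10.1 ± 0.751 CPM in PBS retinas (SD, n = 6 each). Their 13 genes summed to 1428 ± 124 CPM in NMDA retinas and 917 ± 53.5 CPM in PBS retinas, ranges of 1212 to 1544 CPM and 845 to 996 CPM that did not overlap. The snoRNAs thus made 6.83 to 7.86 CPM per 1000 CPM of their genes in NMDA retinas and 9.04 to 12.1 in PBS retinas. Rpl6 and Rpl7a are among these genes, and their reads can be split with copies, as said above. In NMDA retinas the Rpl7a row averaged 16.4 CPM and its copy AABR07039325.1 averaged 119 CPM. The 13 genes ran from 2.39 CPM for Rpl39 to 473 CPM for Rpl4 in NMDA retinas. Whether other low rows among them lost reads to copies was not tested. The sum of the genes rests mostly on the few highest rows, and it and the ratio are therefore uncertain. For the 71 small RNAs in 53 other protein-coding genes the same ratio was 7.18 to 7.67 in NMDA retinas and 7.54 to 8.08 in PBS retinas, with overlap. There the median log2 fold change was 0.03 for the small RNAs and 0.05 for the genes. These genes were taken by deposited interval alone and need not be the hosts. A cluster of 9 snoRNAs was set against Zbtb37, though RefSeq places Snord78, which is among them, inside Gas5. Zwilch was included though its SNORD16 was counted with Rpl4, and Mir25 brought in both Mcm7 and Cops6.

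**Figure D5:**
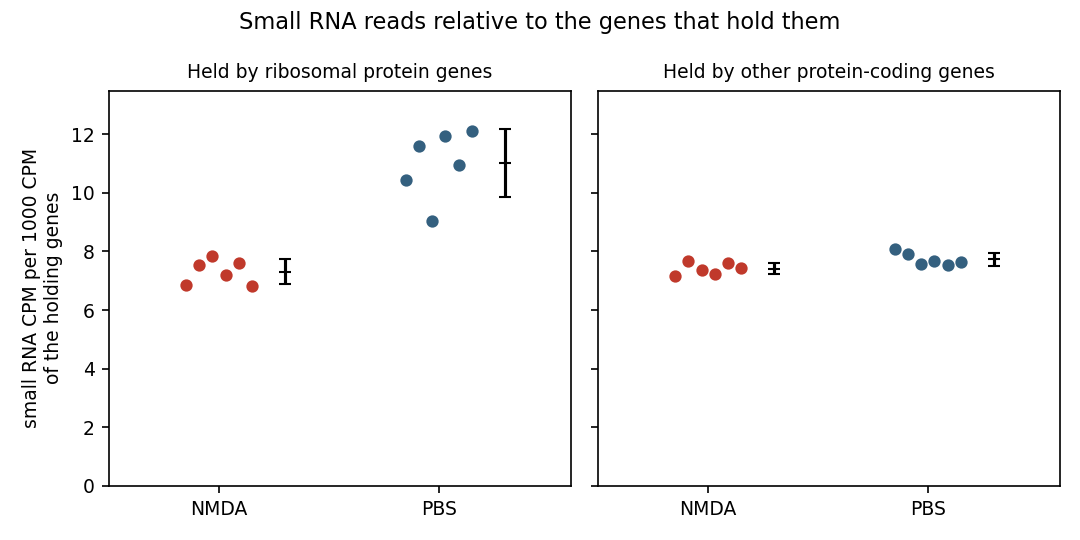
CPM of small RNA members per 1000 CPM of the genes that hold them, in each library, NMDA left of PBS, with the mean and SD as bars; the left panel has 16 snoRNAs in ribosomal protein genes and the right panel 71 small RNAs in other genes. On the left the NMDA libraries, at 6.83 to 7.86, all lie below the PBS libraries, at 9.04 to 12.1. On the right the groups overlap. Holding genes were taken by deposited interval, and reads of some can be split with copies.

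SnoRNAs also lie close together in clusters. In 8 clusters of 3 or more snoRNA or scaRNA members within 20000 bases of each other no member was called by edgeR, DESeq2 or limma voom; limma on FPKM called 5 higher, and 1 was lower at an unadjusted edgeR p below 0.05. The largest, of 9 snoRNAs at chr13:73303829-73306776, includes Snord78, which RefSeq places inside Gas5, the host of many box C/D snoRNAs. All 9 had a fold change above 0, with a median of 0.19 on the log2 scale. Their sum was 7.18 ± 0.757 CPM in NMDA retinas and 6.38 ± 0.307 CPM in PBS retinas (SD, n = 6 each), and the groups overlapped. In a cluster of 5 at chr1:205620094-205621859, which holds SNORD22 and SNORD27 to SNORD30, all 5 were above 0 with a median of 0.22. All members lay above 0 in 3 of the 8 clusters, on both sides of 0 in 4 and below 0 in 1, the 3 snoRNAs inside Nop56, a snoRNP protein gene, with a median of -0.11.

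Protein partners of these RNAs were counted as lists. Of 13 snoRNP protein rows 5 were higher and none lower by edgeR (median log2 fold change 0.19), beside 20.4% higher over all tested genes. They were the methyltransferase fibrillarin (Fbl, 0.79 ± 0.112), Nhp2 (0.49 ± 0.0831), Gar1 (0.48 ± 0.1), Nop10 (0.37 ± 0.0651) and 1 of 2 rows of Snu13 (0.25 ± 0.0624), with edgeR adjusted p of 0.000233, 0.000625, 0.0024, 0.000772 and 0.007. The other Snu13 row had 0.19 ± 0.0766 and was not called (edgeR adjusted p = 0.0657); reads could be split between these rows. Of 22 spliceosomal snRNP rows 12 were higher and none lower by edgeR (median 0.25), among them Snrpd2 at 0.51 ± 0.0981 (edgeR adjusted p = 0.0013). Without NMDA library 3, 8 snoRNP rows were higher. Snrpg has several rows, of which 2 were called. Of 11 paraspeckle proteins 5 were higher and none lower by edgeR (median 0.12), the largest being Nudt21 at 0.30 ± 0.0747 (edgeR adjusted p = 0.0065), and 3 were higher without NMDA library 2. In these 3 lists no row was lower at an unadjusted p below 0.05 or by DESeq2, limma voom or limma on FPKM.

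Proteins that make and use microRNAs were mostly not called. Of 16 tested, 2 were higher and 1 lower (median log2 fold change -0.04), shares of 12.5% and 6.25% beside 20.4% and 17.5% over all tested genes. The calls were Lin28a, which blocks let-7 maturation, at 0.21 (edgeR adjusted p = 0.005), the hairpin exporter Xpo5 at 0.12 (edgeR adjusted p = 0.0306), and the silencing scaffold Tnrc6c at -0.11 (edgeR adjusted p = 0.0205). Leaving out 1 library gave 1 to 3 higher and 0 to 2 lower; the Xpo5 call was lost without any of NMDA libraries 1, 2, 4 and 6 and PBS libraries 2, 3, 4 and 6 (log2 fold changes of 0.10 to 0.12) and the Tnrc6c call without NMDA library 6 (-0.093). Of 22 protein rows of 7SK, signal recognition, RNase P and Ro or La particles, 4 were higher and 2 lower (median 0.08). These were shares of 18.2% and 9.09% beside the same 20.4% and 17.5%, and 7 were higher without PBS library 3. Ro60, the Ro autoantigen that binds misfolded small RNAs, fell by 0.50 (edgeR adjusted p = 0.000358), and Rpp25, a subunit of RNase P, fell by 0.51 (edgeR adjusted p = 0.0022).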

How the data were processed

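Retinal total RNA of 6 NMDA-injected and 6 PBS-injected rats was sequenced. The submitters' processing notes name Bowtie2, RSEM 1.3.1 and DESeq2 1.4.5. The deposited table gives whole-number read counts per gene, per the file headers, and FPKM made by the authors. Genome build, strand setting and library selection are not given in the sources used here, so overlapping or near-identical genes are uncertain. P-values measure the spread between these libraries, 1 per rat.

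Counts were tested with edgeR 4.0.16 (TMM scaling, filterByExpr with minimum counts 10 and 15 in total, robust quasi-likelihood fit without a block) on 16260 genes, with Benjamini-Hochberg adjustment at 0.05 over all of them; errors of log2 fold changes are standard errors. CPM are TMM-scaled. The code was tested on simulated data. Alternatives used DESeq2 1.42.0, limma 3.58.1 (also on log2(FPKM + 0.1)), other scalings, filters and left-out libraries; leaving out members with a RefSeq protein-coding symbol was added after seeing the data, as was the comparison with holding genes.

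Same-numbered NMDA and PBS libraries share only a number.

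Members and lists were chosen with earlier results of these data known. Named were the largest called rises and falls per class with a mean of at least 1 CPM and no overlap of groups (6 long noncoding, 5 small RNA and 5 pseudogene symbols each way, and 2 identifiers each way), the 3 highest by FPKM per class, and fixed symbols; others are marked. RefSeq tables of GRCr8 gave symbols, holding genes and sequences; deposited coordinates are as in the file. Intervals of counts cover counting error only.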

Additional observations from a re-analysis of the deposited data

Results flagged for a closer look

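In 68 groups of 6 libraries, 1 library stood apart from the other 5 by Dixon's test at its 95% critical value in 4 groups; chance alone flags about 1 in 20 groups. Mir204 had 0.476 CPM in PBS library 5, while the other PBS libraries had 0.353 to 0.371 CPM. Cdc42se1 had 35.4 CPM in PBS library 3, while the other PBS libraries had 40.0 to 42.3 CPM. Mir6323 had 15.6 CPM in NMDA library 1, while the other NMDA libraries had 10.3 to 12.3 CPM. The long noncoding rows took 0.126% of the counts in PBS library 1, while they took 0.132% to 0.133% in the other PBS libraries.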

How the results depend on the processing

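The count of all called genes stayed within 1.5 times of 6167 under every setting run, and 40 to 53 of the 53 member calls were also called under each of them. With limma on log2(FPKM + 0.1), 47 members were higher, with 12 small RNA rows higher and 11 lower. Small RNA rows were called higher in 2 cases with library sizes alone and in 1 with limma voom. A filter of 1 CPM in 6 libraries, and likewise only members overlapping no protein-coding gene, left 4 small RNA rows lower. Only members without a RefSeq protein-coding symbol gave 11 higher and 16 lower in all, 0 and 5 among long noncoding rows, and 11 and 4 among pseudogene rows, since fewer genes count. Without NMDA 1 and NMDA 3 together, 11 long noncoding rows were higher. Leaving out each library in turn gave 5 (without NMDA 5) to 10 (without NMDA 1) long noncoding rows higher, 0 to 2 (without NMDA 4) small RNA rows higher and 4 (without NMDA 6) to 8 (without NMDA 1) small RNA rows lower.

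The log2 fold change of Rpph1 changed sign, to 0.037 with library sizes alone, 0.059 with limma voom, 0.038 with limma on FPKM, 0.089 without PBS 5 and NMDA 3 and 0.035 without NMDA 1 and NMDA 3, and ran from -0.17 to 0.10 as each library was left out. Mir3064 ran from -0.034 to 0.061 then. Cryaa had -0.19 with limma on FPKM and -0.037 without PBS 5 and NMDA 3. None of these was called in any setting, and the cause was not tested. Of 29 named genes tested, the others kept their sign in every setting; Ptpdc1, Tspyl1 and Mir124-2 lost their call in some, and Atp5mc1 (0.21 without NMDA 1 and NMDA 3) and Mir6323 gained it.

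With a replicate block, 3 small RNA rows and 7 pseudogene rows were lower. Same-numbered libraries had correlations of -0.19 to 0.15 in their deviations from the group means, and none correlated best with its own number. The small RNA rows had a median mean count of 18.4; its part in their few calls was not tested, and 24.5% of all tested genes with a mean count under 50 were called.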

Other observations

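Other members with large but uncalled changes were Nupr1l1, related to a stress-induced transcriptional regulator, and Muc3, an intestinal mucin. Nupr1l1 ran from 0.115 to 6.22 CPM (median 3.33) in NMDA retinas and from 0.353 to 1.86 CPM (median 0.625) in PBS retinas, with NMDA library 1 below every PBS library (log2 fold change 1.78 ± 0.683, edgeR adjusted p = 0.0579). It was called without NMDA library 1, NMDA library 4 or PBS library 5 (log2 fold changes of 1.98 to 2.19, edgeR adjusted p = 0.00765 to 0.038). Muc3 ran from 1.21 to 28.1 CPM in NMDA retinas and from 0.111 to 11.8 CPM in PBS retinas (log2 fold change 1.74 ± 0.935, edgeR adjusted p = 0.171). Both were chosen after their values were seen.

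Mir2985 was counted at 2 separate levels in both groups. It had 44 and 36 counts in NMDA libraries 2 and 4 and exactly 1 count in the other NMDA libraries, and 44 and 42 counts in PBS libraries 1 and 2 and exactly 1 in the other PBS libraries. AABR07057353.2, a second microRNA row, had 1 count in NMDA library 4 and in PBS library 2 and 14 to 33 counts in the other NMDA and PBS libraries.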
